A study of Mus musculus with 13 samples.

Results

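TGF-beta signalling genes were followed across 4 treatment groups of mouse aorta: the 3 ligands Tgfb1, Tgfb2 and Tgfb3, the 3 receptors Tgfbr1, Tgfbr2 and Tgfbr3, the signal transducer Smad3, the matrix gene Ltbp2 and the target gene Ccn2. These 9 genes were taken by symbol from the 56953 genes of the deposited count table, and 9 of 9 were among the 18055 genes with enough counts to be tested. The tissue was whole aorta of ApoE-/- mice, which lack apolipoprotein E and develop atherosclerosis. All mice ate a Western diet for 16 weeks from 6 weeks of age, so diet and genotype are shared by every group and neither was varied. There were 3 libraries of mice given auranofin (3 mg/kg/day), 3 given atorvastatin mixed into the diet (10 mg/kg/day), 2 given both drugs at these doses (combination) and 5 given no drug (WD). Auranofin, a gold compound, is an inhibitor of thioredoxin reductase. Atorvastatin inhibits HMG-CoA reductase, the enzyme that limits cholesterol synthesis. The design asks how each drug, alone or with the other, altered the aortic transcriptome.

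TGF-beta ligands are secreted in latent complexes that are held in the extracellular matrix and activated there by integrins, proteases and other factors. The active ligand brings together a type II and a type I receptor kinase, which phosphorylate SMAD2 and SMAD3, and these move with SMAD4 to the nucleus to regulate matrix, contractile and feedback genes. In arteries the pathway is known for matrix production by smooth muscle cells and fibroblasts, for the integrity of the aortic wall, and for effects on plaque inflammation and fibrosis.

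Libraries held 19703683 to 26079566 counts, and the 9 genes had 225 to 77389 counts per library. Levels are in CPM, read counts scaled to a common library size, here with the TMM factors of edgeR that adjust for library composition. Mitochondrial genes took 9.36% to 38.8% of the counts, and the library auranofin 2 stood at the top of that range. The TMM factor was 0.629 in auranofin 2 and 0.639 in WD 2, against 0.801 to 1.23 in the other libraries. Results of the 9 genes that rest on these 2 libraries are therefore also given without them or as a range over left-out libraries. Fold changes of the wider pathway lists are given with all libraries only. All 8 contractile smooth muscle markers had counts in every library, as did the macrophage, endothelial and fibroblast markers. Mean levels of the smooth muscle markers in WD ran from 8.465 CPM for Myocd and 37.35 CPM for Tagln to 15250 CPM for Acta2. Summed B cell markers ran from 19.8 to 678 CPM and summed heart muscle markers from 9.20 to 1232 CPM. The labels give no batch and do not tie libraries to named mice, so p-values measure only the spread between these samples.

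The sequence before the transcription start is shown for 4 of the genes, because they differ in the motifs through which TGF-beta and general transcription factors are known to act. The RefSeq promoter table (build GRCm38.p6) matched 6 of 9 genes, Tgfb1, Tgfb2, Tgfbr1, Tgfbr2, Smad3 and Ltbp2, and not Tgfb3, Tgfbr3 or Ccn2. Each line holds the 250 bases before the annotated start, 5′ to 3′ on the strand of the gene. Capitals mark a SMAD box (GTCTG or CAGAC), an SP1 GC box (GGGCGG or CCGCCC) or a TATA box (TATAAA or TTTATA), searched on both strands, and no matches overlapped in these windows. The lines are Tgfb1 at chr7:25686752-25687001 on the plus strand, Tgfb2 at chr1:186705990-186706239 on the minus strand, the first of 2 annotated starts of Tgfbr1 at chr4:47352972-47353221 on the plus strand, and Ltbp2 at chr12:84876492-84876741 on the minus strand.
Tgfb1: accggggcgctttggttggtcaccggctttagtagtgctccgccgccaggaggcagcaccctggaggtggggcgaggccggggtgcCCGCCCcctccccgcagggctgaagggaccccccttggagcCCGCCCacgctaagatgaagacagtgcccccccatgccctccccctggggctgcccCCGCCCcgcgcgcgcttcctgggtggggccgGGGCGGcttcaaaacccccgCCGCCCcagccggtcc
Tgfb2: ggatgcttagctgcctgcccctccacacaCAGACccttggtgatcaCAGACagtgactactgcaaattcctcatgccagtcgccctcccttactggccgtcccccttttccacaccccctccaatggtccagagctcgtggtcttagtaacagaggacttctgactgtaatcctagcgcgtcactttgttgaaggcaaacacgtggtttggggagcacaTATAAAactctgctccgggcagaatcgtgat
Tgfbr1: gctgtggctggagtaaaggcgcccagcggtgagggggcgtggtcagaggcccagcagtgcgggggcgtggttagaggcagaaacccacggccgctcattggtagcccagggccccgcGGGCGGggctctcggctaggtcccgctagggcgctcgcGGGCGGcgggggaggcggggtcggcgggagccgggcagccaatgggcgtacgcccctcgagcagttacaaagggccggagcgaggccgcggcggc
Ltbp2: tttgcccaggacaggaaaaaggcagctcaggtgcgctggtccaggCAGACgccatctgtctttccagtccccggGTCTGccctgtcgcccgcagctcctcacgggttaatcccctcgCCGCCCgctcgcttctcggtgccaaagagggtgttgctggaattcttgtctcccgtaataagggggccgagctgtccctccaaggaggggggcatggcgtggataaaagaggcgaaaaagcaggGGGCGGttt
The Tgfb1 window held 5 GC boxes and no SMAD box, at a GC content of 75.2%. The Tgfb2 window held 2 SMAD boxes and 1 TATA box with a GC content of 53.6%, and the Ltbp2 window held 2 SMAD boxes and 2 GC boxes at 61.6%. The Tgfbr1 window had 2 GC boxes at 74.8%. Of 32851 promoter windows in the table, 42.2% held a SMAD box, 32.7% a GC box and 12.4% a TATA box, and the median GC content was 52.4%. The AP-1 motif TGANTCA, found in 6.75% of windows, was in none of the members' windows. A match describes these letters and is no evidence of a bound site.

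Per kilobase of exon, Ccn2 was the most abundant of the 9 genes, at 514 ± 242 CPM per kb (SD over 13 libraries), and it was above the next gene in 13 of 13 libraries. Tgfb3 followed at 24.0 ± 6.83 CPM per kb, then Tgfbr1 at 18.1 ± 4.91 and Tgfbr2 at 17.8 ± 2.78 CPM per kb. Tgfbr1 was above Tgfbr2 in only 6 of 13 libraries, so the order of these receptors was within their spread. Ltbp2 had 14.9 ± 7.83 CPM per kb and Tgfb1 12.1 ± 3.09 CPM per kb, with Ltbp2 higher in 8 of 13 libraries. The lower end held Tgfbr3 at 8.59 ± 2.07, Tgfb2 at 7.998 ± 3.57 and Smad3 at 5.52 ± 1.19 CPM per kb, with Tgfbr3 above Tgfb2 in 9 of 13 libraries and Tgfb2 above Smad3 in 12 of 13.

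Per length, Tgfb3 had 43.0% to 64.8% of the summed ligand level and was the most abundant ligand in every library except auranofin 2. Tgfb1 held 16.4% to 48.3% and Tgfb2 8.70% to 29.6%. The Tgfb1 share was highest in auranofin 2, at 48.3% against 43.0% for Tgfb3, and the Tgfb2 share was lowest there. In WD 2 Tgfb1 had 43.6% and Tgfb3 45.0%. The mean Tgfb3 share was 50.9% ± 8.04 with auranofin, 55.8% ± 7.69 with atorvastatin, 50.9% ± 3.50 with the combination and 55.3% ± 8.10 in WD (SD; n = 3, 3, 2 and 5), and the group ranges overlapped.

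The genes also differed in how far they ranged over the 13 libraries. The highest library was 6.99 times the lowest for Ccn2, 6.87 times for Tgfb2 and 6.14 times for Ltbp2. Tgfbr2 was the steadiest, at 1.70 times, and Smad3 followed at 2.00 times. Auranofin 2 held the lowest value of Tgfb2, Tgfb3, Ltbp2 and Ccn2, and WD 2 the lowest of Tgfbr1, Tgfbr2, Tgfbr3 and Smad3.

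No gene passed an adjusted p of 0.05 in any of 7 comparisons with the quasi-likelihood test of edgeR, the 9 TGF-beta genes included. P-values were adjusted over all 18055 genes with the Benjamini-Hochberg method, so the share called was 0% in each comparison. Genes at an unadjusted p under 0.05 in edgeR numbered 1173 (6.5% of all tested) for auranofin against WD, 2648 (14.7%) for atorvastatin against WD, 265 (1.47%) for the combination against WD and 795 (4.4%) for auranofin against atorvastatin. They numbered 486 (2.69%) for auranofin given or not, 1278 (7.08%) for atorvastatin given or not and 559 (3.1%) for the interaction of the drugs. With other tools, limma called 0 genes throughout, and DESeq2 called 2 for auranofin against WD, 4 for the combination against WD, 5 for auranofin against atorvastatin, 9 for the interaction and 0 elsewhere, with no TGF-beta gene among them. In what follows, log2 fold changes are therefore estimates with their standard errors (SE), and unadjusted p-values are given only to rank them. The comparisons with WD share the same 5 WD libraries and are not independent of each other. In whole aorta, fewer cells of a type and less RNA per cell cannot be told apart.

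Auranofin was set against WD first. Tgfb1, the ligand made by many cell types including macrophages, had 31.5, 71.6 and 58.9 CPM with auranofin, against 78.9, 86.1, 41.7, 66.4 and 61.8 CPM in WD. Auranofin 1 was below and the others within the WD range, and the log2 fold change was −0.31 (SE 0.29). It was −0.04 without auranofin 1, −0.57 without auranofin 2 and −0.21 without WD 2. Tgfb2, a ligand needed in heart and vessel development, had 40.6, 14.8 and 48.9 CPM with auranofin, against 52.6, 25.8, 55.1, 38.6 and 32.3 CPM in WD. Only auranofin 2 lay outside the WD range, and the log2 fold change of −0.23 (SE 0.38) was 0.13 without that library. Tgfb3, the most abundant ligand here, had 64.8, 42.8 and 69.9 CPM with auranofin, against 100, 59.5, 110.9, 68.7 and 97.5 CPM in WD. The auranofin values lay in the low part of the WD range or below it, and the log2 fold change was −0.56 (SE 0.27, 95% interval −1.15 to 0.03, edgeR adjusted p = 0.671). Without auranofin 2 the Tgfb3 estimate was −0.38.

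The receptor estimates with auranofin were positive and no larger than about their errors. Tgfbr1, the type I receptor kinase, had 150.8, 69.4 and 125.3 CPM with auranofin, against 126.3, 58.4, 131.6, 138.8 and 87.6 CPM in WD. Auranofin 1 was above every WD library, auranofin 2 and WD 2 were the lowest of their groups, and the log2 fold change was 0.09 (SE 0.31). Tgfbr2, the type II receptor that binds ligand first, had 138.1, 132.7 and 173.4 CPM with auranofin, against 137.7, 108.2, 152.4, 156.7 and 114.4 CPM in WD. Its log2 fold change was 0.15 (SE 0.20) with overlapping groups. Tgfbr3, betaglycan, a co-receptor that presents TGF-beta2, had 62.7, 43.9 and 63.6 CPM with auranofin, against 47.9, 26.5, 62.8, 54.9 and 44.6 CPM in WD. Auranofin 3 was just above the highest WD library, and the log2 fold change of 0.26 (SE 0.25) was 0.41 without auranofin 2 and 0.11 without WD 2.

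Smad3, which carries the signal to the nucleus, had 26.1, 23.1 and 33.1 CPM with auranofin, against 37.0, 21.8, 29.2, 31.9 and 22.5 CPM in WD, with a log2 fold change of −0.05 (SE 0.21). Ltbp2 encodes a fibrillin-binding matrix protein related to the proteins that anchor latent TGF-beta. It had 61.7, 39.8 and 127.7 CPM with auranofin, against 182.3, 92.9, 55.3, 145.9 and 47.6 CPM in WD. The spread within both groups was as wide as the gap between them, and the log2 fold change was −0.46 (SE 0.51). It was −0.15 without auranofin 2, −0.17 without WD 1 and −1.04 without auranofin 3. Ccn2, connective tissue growth factor, a matricellular protein induced by TGF-beta and by mechanical signals, had 1152, 396 and 983 CPM with auranofin, against 2770, 646, 1659, 1512 and 1155 CPM in WD. All auranofin libraries were below all WD libraries except WD 2, and the log2 fold change was −0.88 (SE 0.47, 95% interval −1.90 to 0.15, edgeR adjusted p = 0.671). Without auranofin 2 it was −0.54, without WD 1 −0.57, and with a contractile smooth muscle score as covariate, chosen after seeing the data, it was −0.47.

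**Figure D1:**
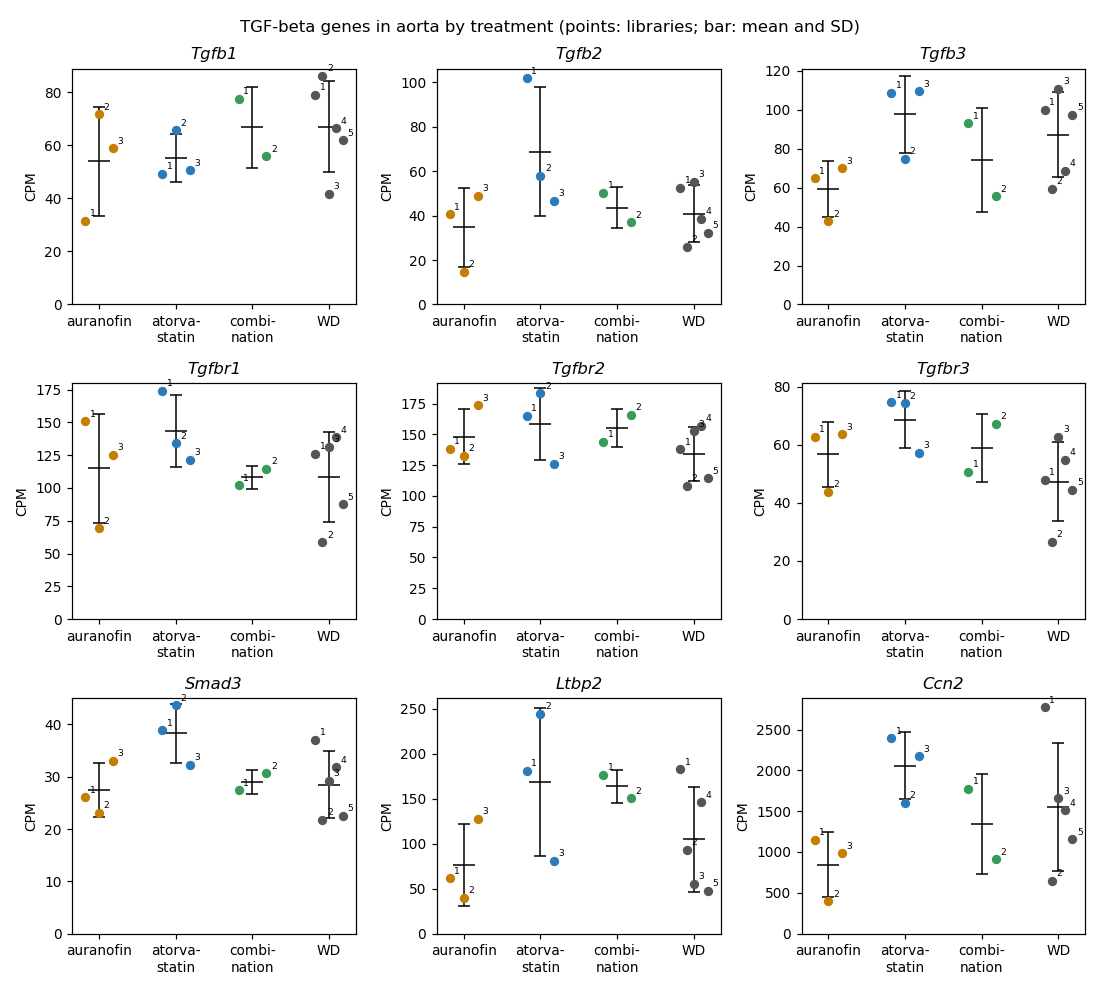
CPM (TMM-scaled, linear axes from 0) of the 9 genes in each library, by group, with auranofin, atorvastatin and combination left of WD; points are libraries with their replicate number and bars are the mean and SD. For Ccn2 the auranofin libraries had 396 to 1152 CPM and all lay below the atorvastatin libraries at 1602 to 2394 CPM.

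Of the 9 genes, 3 were fitted higher and 6 lower with auranofin than in WD, where 46.4% of all tested genes were fitted higher and 53.6% lower. No member was at an unadjusted p under 0.05, against 1173 genes or 6.5% of all tested. The median log2 fold change of the members was −0.23, and that of all tested genes was −0.04. Summed contractile smooth muscle markers had 6073 to 15680 CPM with auranofin and 13050 to 27640 CPM in WD, and the smooth muscle score (mean log2 CPM of the markers) was 6.89 in auranofin 2 and 8.18 to 9.11 in the other libraries. Of the other cell type markers, 7 of 7 endothelial, 8 of 8 adipocyte, 6 of 6 B cell and 6 of 6 T cell genes were fitted higher with auranofin than in WD, and 5 of 5 heart muscle genes lower. Their summed levels overlapped between the groups, with 760 to 2448 CPM with auranofin and 555 to 1026 CPM in WD for endothelial markers, and 1268 to 4937 CPM with auranofin and 318 to 1729 CPM in WD for adipocyte markers. With the smooth muscle score as covariate Tgfb3 had a log2 fold change of −0.17, and with an adipocyte score as covariate that of Ltbp2 was 0.13. The heart muscle score was 5.416 in WD 1 and 5.381 in WD 4, against 0.499 to 0.806 in the other WD libraries. It was 0.43 to 1.029 with auranofin, and 5 of 5 heart muscle genes were also lower with atorvastatin than in WD. In auranofin 1, 2 and 3 the B cell score was 0.917, 4.395 and 1.76, against 0.687 to 2.008 in WD. The endothelial score was 6.265, 7.345 and 6.00, against 5.443 to 6.468 in WD. The part of the other markers in the members' values was not tested.

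Atorvastatin was next set against WD. Tgfb2 had 101.8, 57.8 and 46.7 CPM with atorvastatin, against 52.6, 25.8, 55.1, 38.6 and 32.3 CPM in WD. Atorvastatin 1 held the highest value of the series, and the log2 fold change was 0.75 (SE 0.37, edgeR adjusted p = 0.340), or 0.33 without that library. Tgfb3 had 108.7, 75.0 and 109.6 CPM with atorvastatin, within the WD range, with a log2 fold change of 0.16 (SE 0.27). Tgfb1 had 49.2, 65.6 and 50.6 CPM with atorvastatin, also within the WD range, and a log2 fold change of −0.28 (SE 0.28) that was −0.18 without WD 2 and −0.42 without WD 3 or without atorvastatin 2.

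The receptors and Smad3 had positive estimates. Tgfbr3 had 74.6, 74.2 and 57.2 CPM with atorvastatin, against 26.5 to 62.8 CPM in WD, so that 2 of 3 libraries lay above every WD library. Its log2 fold change was 0.54 (SE 0.25, unadjusted p = 0.0512, edgeR adjusted p = 0.340). Smad3 likewise had 2 of 3 libraries above WD, at 38.9, 43.7 and 32.3 CPM with atorvastatin against 21.8 to 37.0 CPM in WD, and a log2 fold change of 0.43 (SE 0.20). Tgfbr1 had 174.2, 134.1 and 121.6 CPM and Tgfbr2 165.2, 183.4 and 125.9 CPM with atorvastatin. The log2 fold changes against WD were 0.40 (SE 0.30) for Tgfbr1 and 0.24 (SE 0.20) for Tgfbr2, with overlapping groups. The Tgfbr1 estimate was 0.22 without atorvastatin 1 and 0.24 without WD 2. Over left-out libraries the estimates ran from 0.39 to 0.65 for Tgfbr3, 0.33 to 0.53 for Smad3 and 0.13 to 0.38 for Tgfbr2.

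Ltbp2 had 180.7, 244.2 and 80.8 CPM with atorvastatin, against 47.6 to 182.3 CPM in WD, and a log2 fold change of 0.69 (SE 0.49), or 0.33 without atorvastatin 2. Atorvastatin 2 was the highest library of the series and atorvastatin 3 lay in the lower part of the WD range. Ccn2 had 2394, 1602 and 2171 CPM with atorvastatin, against 646 to 2770 CPM in WD, and a log2 fold change of 0.41 (SE 0.45), which was 0.72 without WD 1, 0.21 without WD 2 and 0.27 without atorvastatin 1. In all, 8 of 9 genes were fitted higher with atorvastatin, Tgfb1 being the exception, where 49.2% of all tested genes were fitted higher. No member was at an unadjusted p under 0.05, against 14.7% of all tested genes. The median log2 fold change of the members was 0.41, and that of all genes −0.01.

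The combination had only 2 libraries, and no member stood apart from WD. Tgfb1 had 77.5 and 55.9 CPM, Tgfb2 50.2 and 36.9 CPM and Tgfb3 93.1 and 55.5 CPM with both drugs, and Tgfb3 in combination 2 was below every WD library. Tgfbr1 had 102.1 and 114.5 CPM, Tgfbr2 144.1 and 165.8 CPM and Tgfbr3 50.7 and 67.3 CPM. Combination 2 lay above the WD range for Tgfbr2 and Tgfbr3, and combination 1 within it. Smad3 had 27.4 and 30.7 CPM, Ltbp2 176.6 and 150.3 CPM and Ccn2 1772 and 910 CPM, all within the WD ranges. Log2 fold changes against WD ran from −0.23 (SE 0.31) for Tgfb3 to 0.64 (SE 0.55) for Ltbp2, with 5 members higher and 4 lower against 49% and 51% of all genes. No member was at an unadjusted p under 0.05, against 1.47% of all genes.

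**Figure D2:**
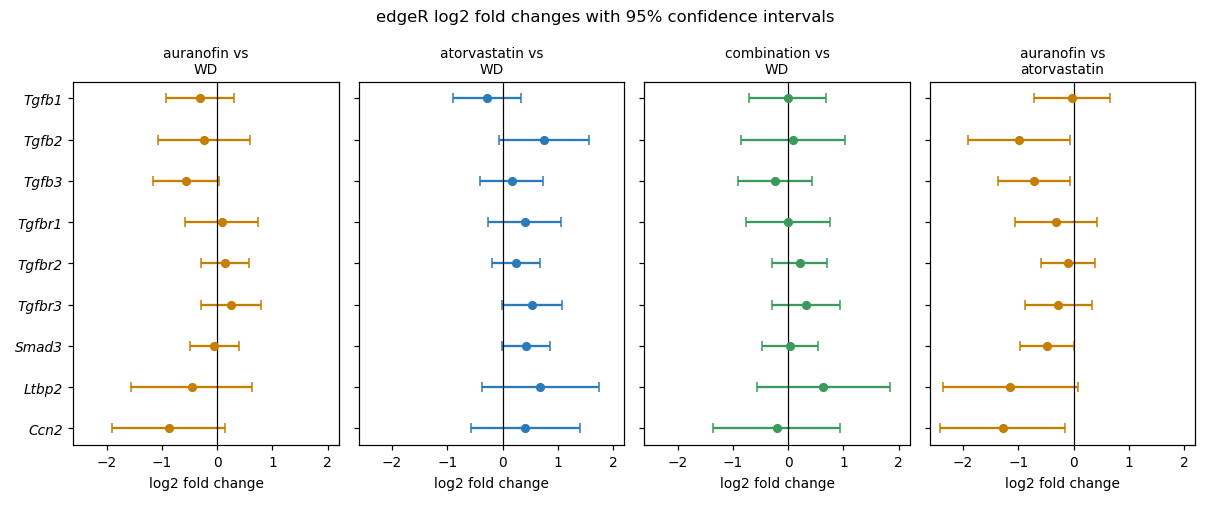
Log2 fold changes from edgeR of the 9 genes in 4 comparisons, with 95% confidence intervals; a positive value means higher in the first-named group. Intervals for Tgfb2, Tgfb3 and Ccn2 lie below 0 for auranofin against atorvastatin, before adjustment over genes, and all others cross 0.

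The estimates farthest from 0 in these group comparisons were between the drugs themselves, for Ccn2, Ltbp2 and Tgfb2. All 9 genes were fitted lower with auranofin than with atorvastatin, where 49.9% of all tested genes were fitted lower. The 3 auranofin libraries had 396 to 1152 CPM of Ccn2, all below the 3 atorvastatin libraries at 1602 to 2394 CPM, and the log2 fold change was −1.28 (SE 0.52, 95% interval −2.41 to −0.16). Tgfb3 had 42.8 to 69.9 CPM with auranofin, also without overlap, against 75.0 to 109.6 CPM with atorvastatin, a log2 fold change of −0.72 (SE 0.30). Such gaps were common in a comparison of 3 with 3 libraries, since 7.63% of all genes had every auranofin library below every atorvastatin library.

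Tgfb2 had 14.8 to 48.9 CPM with auranofin and 46.7 to 101.8 CPM with atorvastatin, with a log2 fold change of −0.98 (SE 0.43). Unadjusted p-values from edgeR were 0.0288 for Ccn2, 0.0320 for Tgfb3 and 0.0394 for Tgfb2, and the adjusted p was 0.826 for each. These were 3 of 9 members at an unadjusted p under 0.05 and lower, against 2.33% of all genes. Without auranofin 2 the log2 fold changes were −0.95 for Ccn2, −0.54 for Tgfb3 and −0.62 for Tgfb2, and the unadjusted p-values from edgeR were 0.0985, 0.120 and 0.131. With the smooth muscle score as covariate they were −0.82 for Ccn2 and −0.32 for Tgfb3. The Tgfb2 estimate was −0.57 without atorvastatin 1. Summed fibroblast markers had 969 to 1942 CPM with auranofin, all above 582 to 919 CPM with atorvastatin, and their part in these values was not tested. Ltbp2 was at −1.14 (SE 0.56), or −1.72 without auranofin 3, and Smad3 at −0.48 (SE 0.23), while Tgfbr1, Tgfbr2, Tgfbr3 and Tgfb1 were at −0.32, −0.10, −0.28 and −0.03. Without auranofin 2 Tgfbr1 was at −0.05 and Tgfbr3 at −0.12.

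Each drug was also assessed over all libraries with the other drug as a covariate. With auranofin given, Tgfb3 averaged 65.2 CPM and without it 91.2 CPM (n = 5 and 8), a log2 fold change of −0.50 (SE 0.21, unadjusted p = 0.0309 in edgeR, adjusted p = 0.998). Ccn2 averaged 1043 CPM with auranofin and 1739 CPM without it, a log2 fold change of −0.77 (SE 0.36, unadjusted p = 0.0479 in edgeR, adjusted p = 0.998). These were the 2 members at an unadjusted p under 0.05 and lower, against 0.798% of all genes, and 7 of 9 members were fitted lower, against 55.4% of all genes. Without auranofin 2 the estimates were −0.57 for Ccn2 and −0.38 for Tgfb3. Without both auranofin 2 and WD 2, a choice made after seeing the data, they were −0.67 and −0.44.

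With atorvastatin given, Ltbp2 averaged 166.5 CPM and without it 94.1 CPM (n = 5 and 8), a log2 fold change of 0.85 (SE 0.37, unadjusted p = 0.0403 in edgeR, adjusted p = 0.546). Ltbp2 was the only member at an unadjusted p under 0.05 and higher, against 2.84% of all genes. Tgfb2 had the next estimate, 0.59 (SE 0.29), with 58.7 CPM given atorvastatin and 38.6 CPM without it. Without atorvastatin 1 the Tgfb2 estimate was 0.33. Fitted estimates were positive for 8 of 9 members, against 50.4% of all genes. Among cell type markers, 6 of 7 fibroblast and 6 of 6 T cell genes were fitted lower given atorvastatin, and 4 of 5 cartilage-like genes higher. Summed fibroblast markers had 582 to 919 CPM with atorvastatin and 809 to 914 CPM with the combination, against 969 to 1942 CPM with auranofin alone and 842 to 1693 CPM in WD. Summed cartilage-like markers had 283 to 1227 CPM with atorvastatin and 320.5 to 528 CPM with the combination, against 329 to 1108 CPM with auranofin alone and 188 to 856 CPM in WD. The mean log2 CPM of these markers placed the groups differently. It was 5.30 to 5.95 with the combination and 3.33 to 5.43 with auranofin alone. It was 2.97 to 7.09 with atorvastatin and 2.72 to 6.68 in WD. At an unadjusted p under 0.05 in edgeR, 2 cartilage-like genes were higher and 1 lower given atorvastatin, against 7.08% of all genes in either direction. The part of these markers in the Tgfb2 and Ltbp2 values was not tested. The interaction of the drugs had no member at an unadjusted p under 0.05, against 3.1% of all genes. Its members ranged from −0.49 (SE 0.49) for Tgfbr1 to 0.59 (SE 0.45) for Tgfb1.

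Across the 13 libraries many of the genes moved together. How often pairs of other genes did so was not tested. The counts of pairs therefore do not set the TGF-beta genes apart from other genes. Of 36 pairs of members, 15 had a Pearson r of log2 CPM with an adjusted permutation p under 0.05, and all 15 were positive; 11 still passed without auranofin 2 alone and none without both auranofin 2 and WD 2. Tgfb3 and Ccn2 had r = 0.871 (permutation p = 0.00013, adjusted over 36 pairs 0.00117) and Spearman rho = 0.857 (permutation p = 0.00028, adjusted 0.00756). Their r was 0.816 without auranofin 2 and WD 3, the libraries farthest from the median of Tgfb3, and 0.753 without auranofin 2 and WD 2. Tgfbr2 and Tgfbr3 had r = 0.840 (permutation p = 9e-05, adjusted 0.00117) and rho = 0.852 (permutation p = 0.00042, adjusted 0.00756), with r = 0.738 without their farthest libraries and 0.791 without auranofin 2 and WD 2. Tgfb2 and Ccn2 had r = 0.858 (permutation p = 0.00013, adjusted 0.00117) and rho = 0.786 (permutation p = 0.00217, adjusted 0.0219). It was 0.737 without their farthest libraries and 0.626 without auranofin 2 and WD 2.

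Tgfb1 stood apart from the other ligands. Its r was −0.329 with Tgfb2 and −0.202 with Tgfb3 (permutation p = 0.267 and 0.510; Spearman rho −0.313 and −0.324, permutation p = 0.297 and 0.280). Without auranofin 1 and WD 3 these r values were −0.467 and −0.331, without auranofin 2 and WD 2 they were −0.048 and 0.082, and with all libraries no adjusted p was under 0.05. With Tgfbr3 it had r = −0.599 (permutation p = 0.0325, adjusted 0.0616) and rho = −0.670 (permutation p = 0.0144, adjusted 0.0432), so that only rho passed; r was −0.730 without auranofin 1 and WD 3 and −0.438 without auranofin 2 and WD 2. Smad3 and Ltbp2 had r = 0.765 (permutation p = 0.00314, adjusted 0.0103), rho = 0.742 (permutation p = 0.00538, adjusted 0.0387), and r = 0.781 without their farthest libraries and 0.775 without auranofin 2 and WD 2.

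**Figure D3:**
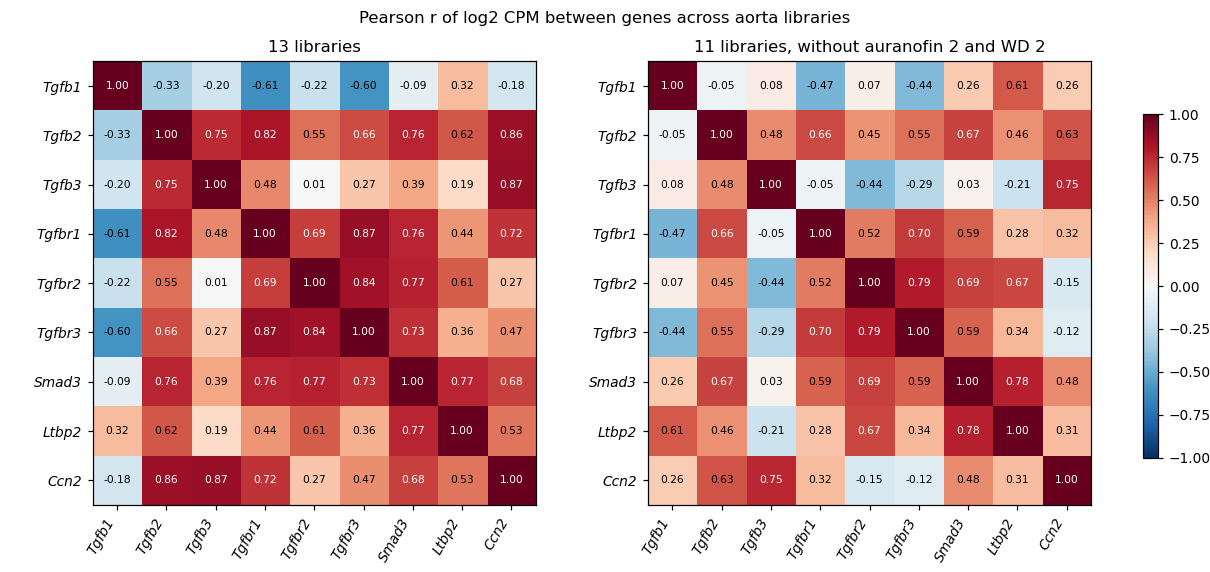
Pearson r of log2 CPM between the 9 genes, across 13 libraries on the left and across 11 libraries without auranofin 2 and WD 2 on the right; colour runs from −1 (blue) to 1 (red). The pair Tgfb3 and Ccn2 is at 0.87 and 0.75, and most other values are nearer 0 on the right.

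The members were then set against marker scores of other cell types, 90 relations added after seeing the data. By r 5 of them had an adjusted p under 0.05, and by rho 4. Tgfb2 was lower where adventitial fibroblast markers were higher, with r = −0.953 (permutation p = 2e-05, adjusted 0.0009) and rho = −0.896 (permutation p = 0.0001, adjusted 0.009). It stayed at r = −0.849 without auranofin 2 and atorvastatin 1, the libraries farthest from the median fibroblast score, and at −0.892 without auranofin 2 and WD 2. Tgfb3 followed the contractile smooth muscle score with r = 0.861 (permutation p = 2e-05, adjusted 0.0009) and rho = 0.824 (permutation p = 0.00082, adjusted 0.0288), and r was 0.894 without auranofin 2 and WD 5 and 0.829 without auranofin 2 and WD 2. Tgfb1 and the macrophage score had r = 0.657 (permutation p = 0.0133, adjusted 0.106) and rho = 0.808 (permutation p = 0.00128, adjusted 0.0288). Without WD 3 and WD 5, which had the lowest macrophage scores, that r was 0.838, and it was 0.570 without auranofin 2 and WD 2. Ccn2 and the fibroblast score had r = −0.778 (permutation p = 0.0019, adjusted 0.0342) and rho = −0.736 (permutation p = 0.0057, adjusted 0.0855), with r = −0.542 without auranofin 2 and atorvastatin 1 and −0.455 without auranofin 2 and WD 2.

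The other relations with an adjusted p under 0.05 by r were those of Ltbp2 and Smad3 with the cartilage-like score, which splits the libraries, so no pooled r is given. In 6 libraries with a score of 2.72 to 4.03 Ltbp2 had 39.8 to 92.9 CPM, and within them r was −0.315 (exact permutation p = 0.572) and rho −0.543 (exact permutation p = 0.297). In 7 libraries with a score of 5.21 to 7.09 Ltbp2 had 127.7 to 244.2 CPM, with r = 0.793 (exact permutation p = 0.0268) and rho = 0.821 (exact permutation p = 0.0341). Smad3 had r = 0.003 (exact permutation p = 0.996) and rho = 0.143 (exact permutation p = 0.803) in the lower set, and r = 0.861 (exact permutation p = 0.0159) and rho = 0.786 (exact permutation p = 0.048) in the higher set. These 8 tests within sets were not adjusted for their number. Each of the 4 groups had libraries in the higher set. The combination had none in the lower set. Mitochondrial genes took 19.4% to 38.8% of the counts in the lower set and 9.36% to 19.1% in the higher set. Between the sets, the cartilage-like score and the mitochondrial share therefore cannot be told apart.

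The mitochondrial share of counts also moved with several members, among 18 relations with this share or the TMM factor added after seeing the data. For Ltbp2 r was −0.822 (permutation p = 0.00023, adjusted 0.00209) and rho −0.846 (permutation p = 0.00043, adjusted 0.00774), with r = −0.765 without auranofin 2 and WD 1 and −0.842 without auranofin 2 and WD 2. For Ccn2 r was −0.840 (permutation p = 0.00058, adjusted 0.00209) and rho −0.720 (permutation p = 0.00709, adjusted 0.0213), with r = −0.613 without auranofin 2 and WD 1 and −0.572 without auranofin 2 and WD 2. Tgfb2 had r = −0.838 (permutation p = 0.00049, adjusted 0.00209) and rho = −0.731 (permutation p = 0.00573, adjusted 0.0213), and r was −0.703 without auranofin 2 and WD 1 and −0.551 without auranofin 2 and WD 2. Tgfb1 had r = −0.048 (permutation p = 0.875) and rho = −0.121 (permutation p = 0.698), with r = −0.171 without auranofin 2 and WD 1 and −0.670 without auranofin 2 and WD 2, so the value for Tgfb1 depended on these libraries. By r the share also passed for Smad3 (−0.730, permutation p = 0.0032, adjusted 0.0064), Tgfbr1 (−0.675, adjusted 0.0185) and Tgfb3 (−0.612, adjusted 0.0334). Without auranofin 2 and WD 2 these r values were −0.637, −0.262 and −0.150. The TMM factor passed by r for every member except Tgfb1 and Tgfb3, from 0.698 for Tgfbr3 to 0.841 for Tgfbr1. Without auranofin 2 and WD 2 the r values were 0.278 for Tgfbr3, 0.509 for Tgfbr1, 0.508 for Tgfb2 and 0.42 for Ccn2. For Ltbp2, Smad3 and Tgfbr2 they were 0.857, 0.712 and 0.647, against 0.761, 0.814 and 0.723 with all libraries. Auranofin 2, with the highest mitochondrial share, also had the highest adipocyte score, 7.75, and the lowest smooth muscle score, 6.89. The part of RNA quality or of tissue composition in the members' group values was not tested.

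**Figure D4:**
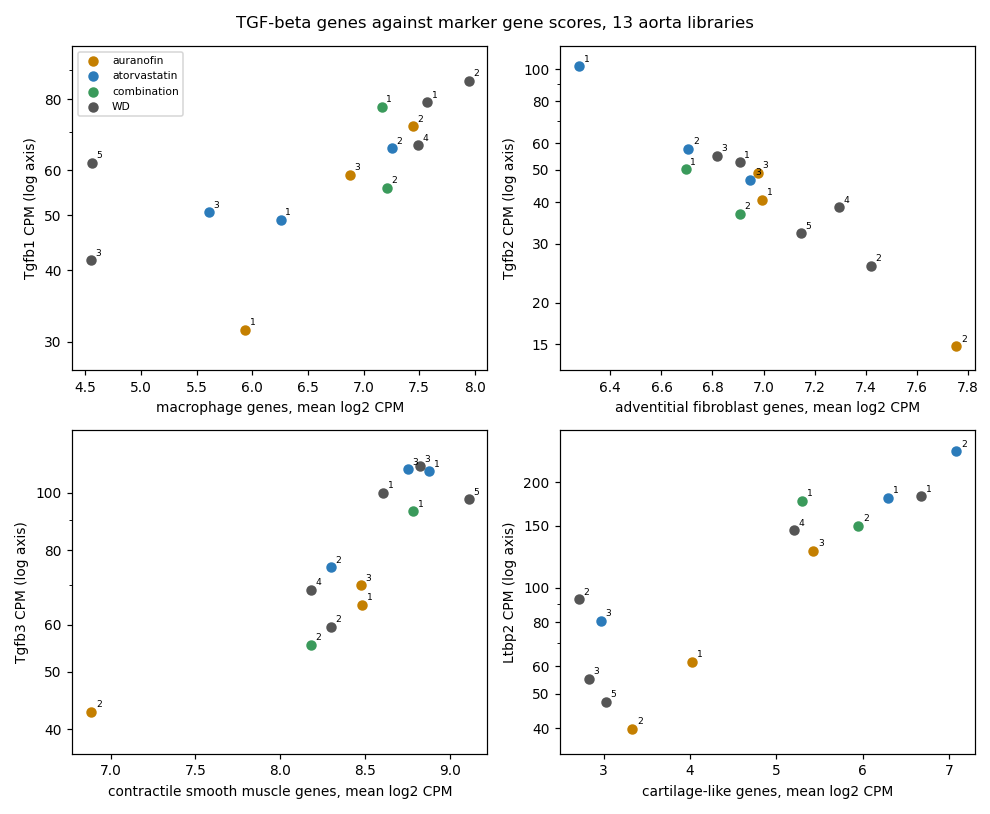
CPM on log axes of Tgfb1, Tgfb2, Tgfb3 and Ltbp2 against the mean log2 CPM of macrophage, adventitial fibroblast, contractile smooth muscle and cartilage-like markers; points are 13 libraries with replicate numbers, coloured by group. Tgfb2 is lowest in auranofin 2, which has the highest fibroblast score, and auranofin 2 lies far left of all others on the smooth muscle axis.

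The genes most like each member, by Pearson r of log2 CPM over the 13 libraries among 12980 genes, are given as a description. For Tgfb1 they were Grn (0.958), Vat1 (0.946) and Glb1 (0.946). For Tgfb2 they were Exoc6b (0.974), Parva (0.972) and Ptprs (0.969), and for Tgfb3 Foxc2 (0.954), Nkx6-1 (0.953) and Fam81a (0.951). The receptors had Pdlim5 (0.978), Macf1 (0.976) and Txlna (0.975) for Tgfbr1, Helb (0.923), Wdr7 (0.915) and Nsf (0.914) for Tgfbr2, and Rnf6 (0.984), Atp13a3 (0.981) and Nfatc3 (0.978) for Tgfbr3. Smad3 was most like Arsb (0.947), Bcr (0.929) and Pip4k2b (0.928). Ltbp2 was most like Tnfrsf11b (0.967), osteoprotegerin, Mamdc2 (0.960) and Cerk (0.947), and Ccn2 was most like Itga5 (0.938), the fibronectin receptor subunit, Vps37c (0.935) and Mmp16 (0.933).

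The wider pathway was read from 54 other genes in 5 lists. These were latency and activation, other receptors, SMADs and their regulators, genes induced by TGF-beta, and matrix and secreted proteins listed as binding or limiting TGF-beta. None passed an adjusted p of 0.05 with edgeR. Among 14 induced genes, 12 were fitted lower and 2 higher with auranofin than in WD, with a median log2 fold change of −0.44 against −0.04 for all genes. Of all tested genes 53.6% were fitted lower. The mean log2 CPM of the 14 genes was 7.65 in auranofin 2, the lowest library of the series. It was 7.92 in auranofin 1, 8.33 in auranofin 3 and 7.94 to 8.68 in WD. Col1a1, the alpha 1 chain of type I collagen, had 484.8, 540.1 and 785.2 CPM with auranofin, against 833.2 to 1082 CPM in WD. These groups did not overlap, and its log2 fold change was −0.71 (SE 0.25, edgeR adjusted p = 0.671); 1.32% of all genes had every auranofin library below every WD library. Bhlhe40, a transcriptional repressor induced by TGF-beta and by other stimuli, had 77.1 to 97.6 CPM with auranofin, all above 42.7 to 70.6 CPM in WD, and a log2 fold change of 0.44 (SE 0.21), where 1.45% of all genes had no overlap in this direction.

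All 6 matrix and secreted genes listed as binding or limiting TGF-beta were fitted lower with auranofin than in WD, with a median of −0.57. Of all tested genes 53.6% were fitted lower. The mean log2 CPM of the 6 genes was 7.71 in auranofin 2, the lowest library of the series. It was 8.10 in auranofin 1, 8.61 in auranofin 3 and 8.35 to 9.02 in WD. Fmod, fibromodulin, had 39.0, 51.0 and 79.6 CPM with auranofin, against 63.4 to 131.5 CPM in WD, and a log2 fold change of −0.80 (SE 0.29). Of 14 SMADs and regulators, 7 were higher and 7 lower, with a median of −0.01, and Pmepa1, a TGF-beta-induced inhibitor of SMAD signalling, was at −0.63 (SE 0.27). The latency list had 3 of 11 tested genes higher and 8 lower, and the other receptors 4 of 8 each way.

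With atorvastatin 10 of 11 latency genes were fitted higher than in WD, with a median of 0.47 against −0.01 for all genes. Of all tested genes 49.2% were fitted higher. Furin, the protease that cleaves the TGF-beta precursor, had 62.4, 69.2 and 80.04 CPM with atorvastatin, all above 39.3 to 61.0 CPM in WD, where 2.83% of all genes had no overlap in this direction. Its log2 fold change was 0.43 (SE 0.20, edgeR adjusted p = 0.340). Fn1, fibronectin, an induced gene, had 2068, 4176 and 4446 CPM with atorvastatin, against 1260 to 2683 CPM in WD, and a log2 fold change of 0.86 (SE 0.40). With the combination the medians of the 5 lists lay between −0.02 and 0.08.

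Between the drugs, Col1a1 had 484.8 to 785.2 CPM with auranofin, all below 960.8 to 1478 CPM with atorvastatin, and a log2 fold change of −1.06 (SE 0.27, unadjusted p = 0.00211 and adjusted p = 0.826 in edgeR). DESeq2 called it at a log2 fold change of −1.05 and an adjusted p of 0.0119, the only gene of the 5 lists called by that tool. Fn1 was at −1.31 (SE 0.47), Fmod at −0.96 (SE 0.32), Furin at −0.73 (SE 0.22) and Ltbp3, a latent TGF-beta binding protein, at −0.82 (SE 0.37). All 14 SMADs and regulators were fitted lower with auranofin than with atorvastatin, with a median of −0.18, while the median of all genes was 0.00. Of all tested genes 49.9% were fitted lower. The mean log2 CPM of the list was 5.22, 5.10 and 5.36 in auranofin 1, 2 and 3, against 5.41 to 5.54 with atorvastatin.

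**Figure D5:**
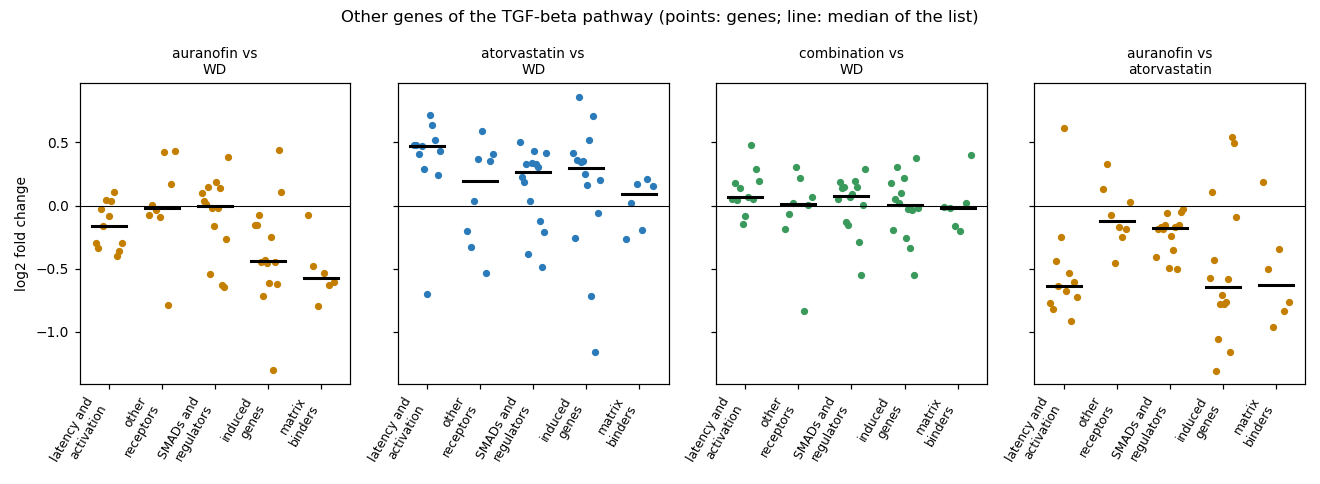
Log2 fold changes from edgeR of the tested genes of 5 pathway lists in 4 comparisons; points are genes, horizontal bars the median of a list, and a positive value means higher in the first-named group. The list labelled matrix binders holds the genes listed as binding or limiting TGF-beta. For auranofin against WD the medians are −0.44 for induced genes and −0.57 for that list. For atorvastatin against WD the latency median is 0.47.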

How the data were processed

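Poly-A RNA of 13 whole-aorta libraries was sequenced on a DNBseq instrument, per the labels. The deposited file holds raw counts per gene; per the submitters' processing notes the authors used STAR 2.6.1d, build GRCm39 and featureCounts (Subread 1.6.3). Counting was not strand-specific, so reads of genes overlapping Tgfb2, Tgfb3, Ltbp2 and Ccn2 on the other strand cannot be told apart from theirs. Those genes had at most 29 counts per library, and Gm43422, which overlaps Tgfbr3 on the same strand, at most 2. How reads overlapping both genes were assigned was not checked, so these counts set no limit on shared reads. Genes were filtered with filterByExpr of edgeR 4.0.16 (R 4.3.3), scaled with TMM, and fitted by group with the quasi-likelihood test, two-sided, adjusted over all genes. Drug terms came from a model with each drug given or not. CPM per kb uses exon lengths of GENCODE M21. Correlations used 100000 permutations. Alternatives were DESeq2 1.42.0, limma 3.58.1, other size factors and filters, covariates, a replicate block and leaving out libraries. No 2 libraries agreed within sampling noise (chi-squared of at least 17.2 per degree of freedom over 78 pairs). The scripts were tested on simulated data. All members were named in every comparison; of each pathway list, the 3 genes with the smallest p could be named, and the 3 genes most like each member by r. The members and gene lists were chosen with earlier results of these data known.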

Additional observations from a re-analysis of the deposited data

Results flagged for a closer look

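The group means of Tgfb1 and Tgfbr1 differed with atorvastatin in opposite directions without and with auranofin. For Tgfb1 every atorvastatin library (49.2, 65.6 and 50.6 CPM) was below the WD mean of 67.0 CPM, while both combination libraries (77.5 and 55.9 CPM) were above the auranofin mean of 54.0 CPM. The interaction term was 0.59 (SE 0.45, edgeR adjusted p = 0.791). For Tgfbr1 every atorvastatin library (174.2, 134.1 and 121.6 CPM) was above the WD mean of 108.6 CPM, while both combination libraries (102.1 and 114.5 CPM) were below the auranofin mean of 115.2 CPM. The interaction term was −0.49 (SE 0.49, edgeR adjusted p = 0.797). The auranofin libraries had 31.5, 71.6 and 58.9 CPM of Tgfb1 and 150.8, 69.4 and 125.3 CPM of Tgfbr1. Both combination libraries lay within that range for Tgfbr1. For Tgfb1 combination 2 lay within it and below auranofin 2 and 3. Neither difference passed the test, and with 2 libraries the combination means rest on few values.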

How the results depend on the processing

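No TGF-beta gene passed an adjusted p of 0.05 under any alternative run; the smallest was 0.187. Of 63 fold changes, 39 kept their sign under every alternative; 32 of 666 values from other settings and 37 of 819 from left-out libraries reversed. Without a low-count filter 13 genes passed for auranofin against WD, 2 for atorvastatin against WD and 9 for the combination against WD. DESeq2 called 2, 4, 5 and 9 genes for auranofin against WD, the combination against WD, auranofin against atorvastatin and the interaction, and 1 induced gene, Col1a1, between the drugs. An adipocyte covariate gave 1 gene for auranofin against WD, 1 against atorvastatin and 1 for the auranofin term, and a smooth muscle covariate 1 between the drugs and 1 for the atorvastatin term. Leaving out libraries gave 0 to 10 genes for the combination against WD (10 without combination 1) and 0 to 2 for the interaction. Correlated pairs numbered 11 to 16 over left-out libraries, 17 with other size factors or without mitochondrial genes, and were 0 without both auranofin 2 and WD 2. Reversed estimates were as follows. Without the filter, Tgfb1 and Tgfbr1 were 0.0079 and 0.0052 for the combination. With limma, Tgfb3 and Ccn2 were −0.0382 and −0.0766 for atorvastatin against WD, Tgfb2 and Smad3 −0.11 and −0.18 for the combination, and Tgfb1 and Tgfb3 0.034 and −0.0009 for the atorvastatin term. With the adipocyte covariate, Tgfb2, Smad3 and Ltbp2 were 0.0397, 0.0443 and 0.13 for auranofin against WD, Tgfb1 and Tgfbr1 0.0713 and 0.0381 for the combination, Tgfb1 0.0861 between the drugs, Tgfb1, Tgfbr3 and Ltbp2 0.0783, −0.0173 and 0.10 for the auranofin term, and Tgfb3, Ltbp2 and Ccn2 −0.006, −0.0746 and −0.22 for the interaction. With the smooth muscle covariate, Tgfb2 was 0.15 for auranofin against WD, Tgfbr1 0.0481 for the combination and 0.0262 for the auranofin term, Tgfb1 0.0336 for the atorvastatin term, and Tgfb3 and Ccn2 −0.14 and −0.0533 for the interaction. Without both auranofin 2 and WD 2, Tgfb2 was 0.0171 for auranofin against WD, Tgfb1, Tgfb2 and Smad3 0.10, −0.0294 and −0.0479 for the combination, and Tgfb1 0.10 for the atorvastatin term. Over left-out libraries, Tgfb2, Tgfbr1 and Smad3 ran from −0.55 to 0.13, −0.16 to 0.35 and −0.21 to 0.0551 for auranofin against WD; Tgfb1 and Tgfbr2 from −0.29 to 0.24 and −0.24 to 0.0104 between the drugs; Tgfb1, Tgfb2, Tgfb3, Tgfbr1, Smad3 and Ccn2 from −0.27 to 0.22, −0.15 to 0.30, −0.66 to 0.10, −0.16 to 0.0933, −0.0548 to 0.13 and −0.77 to 0.20 for the combination. They were −0.23 to 0.11 for Tgfb1, −0.27 to 0.0189 for Tgfbr1, −0.0023 to 0.12 for Tgfbr2 and −0.0237 to 0.17 for Tgfbr3 in the auranofin term, −0.19 to 0.0255 for Tgfb1 in the atorvastatin term, and −0.25 to 0.49 for Tgfb3 and −0.30 to 0.66 for Ccn2 in the interaction. The cause was not tested. Deviations from the group means correlated at −0.349 to 0.433 between same-numbered libraries. Differently numbered libraries were not set beside them, so these values cannot show whether the numbers pair libraries. With the replicate block the Ccn2 estimate for auranofin against WD was −0.94 and for auranofin against atorvastatin −1.43 (edgeR adjusted p = 0.732). Tgfbr1 for the combination reversed to 0.21 with that block. The members had at least 225 counts in each library.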
